A study of Mus musculus with 8 samples.

Results

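Gene expression between 2 h and 4 h of stimulation with lipopolysaccharide (LPS) was examined in peritoneal macrophages of labelled Zc3h12a-/- and wild-type mice. LPS is the bacterial cell wall component sensed by TLR4, and the product of Zc3h12a, Regnase-1, is an endonuclease of inflammatory transcripts. The interval is held by 4 of the 8 arrays of the series, chosen by their labels: labelled knockout at 4 h and at 2 h, and wild type at 4 h and at 2 h, all with LPS at 100 ng/ml. The other 4 arrays are the same genotypes at 0 h, without LPS, and at 1 h. All cells had been elicited with thioglycollate, which recruits macrophages to the peritoneum. The labels do not name the allele, the number of mice, their sex or age, or whether the times of a genotype came from 1 pool of cells. Each genotype and time is 1 array, so the 2 genotypes are the only repetition of the interval. The p-values of the interval rest on how the difference between genotypes varies over the times. An effect of genotype that changes with time thus counts as error and can keep a gene from passing. The brighter Zc3h12a probe set was close in level in the 2 genotypes (8.50 at 4 h against 8.75 at 2 h in labelled-knockout cells and 8.57 at 4 h against 8.87 at 2 h in wild-type cells). Its position relative to the deletion is not known here, so it checks nothing about the labels, and the arrays are called labelled knockout throughout.

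In macrophages, TLR4 starts a first wave of transcription through NF-kB, AP-1 and IRF3, and many of the mRNAs of that wave are short-lived and fall again once transcription slows. Interferon-beta is among the early products, and when secreted it acts on the same cells through its receptor and induces a later wave of antiviral genes, many with an interferon-stimulated response element (ISRE) in their promoters.

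Values are log2 RMA values, so a difference of 1 is a doubling of the signal, and a change is the 4 h value minus the 2 h value. A gene is its probe set of highest mean, and 12540 genes passed a filter on low values. A change was called when limma, fitted to all 8 arrays with genotype as a block, gave a Benjamini-Hochberg adjusted p under 0.05, and "rose" and "fell" are used only of called genes. By this test 2631 of 12540 genes (21%) changed between 2 h and 4 h. Of these, 1412 rose (11.3%) and 1219 fell (9.72%). At least 2-fold in both genotypes as well, 429 genes rose (3.42%) and 345 fell (2.75%). The median change of all genes was 0.00, with quartiles of -0.21 and 0.25. After centring each array on housekeeping genes instead, that median was 0.11 and the split 1839 rising and 927 falling genes (66.5% rising, against 53.7% as deposited).

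**Figure D1:**
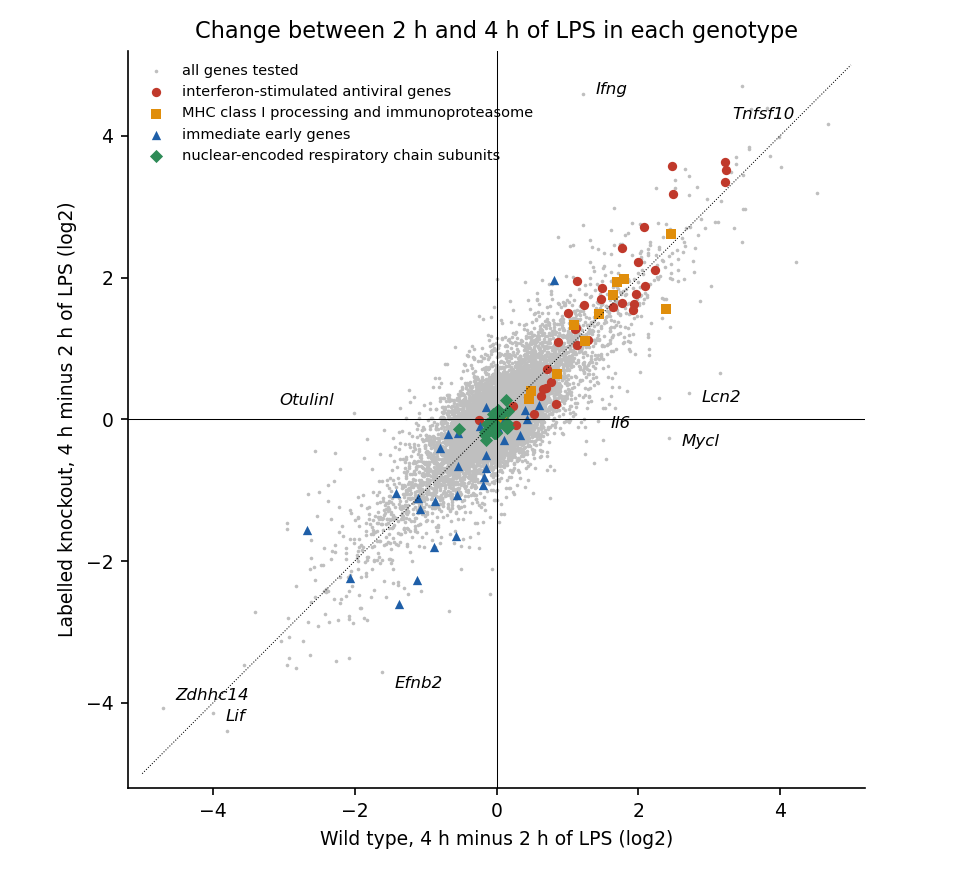
Change between 2 h and 4 h of LPS for 12540 genes, labelled knockout on the vertical and wild type on the horizontal axis (log2), with 4 gene groups coloured and the line of equal change dotted. Interferon-stimulated and MHC class I processing genes lie to the upper right or near 0, most immediate early genes lie in the lower left, and respiratory chain genes gather at the centre.

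The changes of the 2 genotypes, which share no array, were alike in direction for most genes. In labelled-knockout cells 694 genes were at least 2-fold higher and 519 at least 2-fold lower at 4 h, against 618 and 505 in wild-type cells, and 440 (3.51%) and 347 (2.77%) were so in both. No gene moved 2-fold or more in opposite directions. Over all 12540 genes, 9015 (71.9%) had the same sign in both, with Pearson r = 0.815 and a Spearman correlation of 0.673 across genes, which are not independent replicates and share probe affinities and amplification. The level that the 27 bacterial control probe sets set as background lay between 3.02 and 3.26 on the 4 arrays. For Actb, the signal of the 3' control probe set exceeded that of the 5' one by less at 4 h in both genotypes, a comparison that tracks RNA integrity (2.30 at 4 h against 2.52 at 2 h in labelled-knockout cells, and 2.16 at 4 h against 2.43 at 2 h in wild-type cells). That of Gapdh moved the same way (2.90 at 4 h against 3.04 at 2 h in labelled-knockout cells, and 2.98 at 4 h against 3.16 at 2 h in wild-type cells). The part of RNA quality in the changes below was not tested.

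The macrophage label was checked against marker genes. Over all genes 11.3% rose and 9.72% fell, the shares to set beside the counts of markers here. Of 11 general macrophage markers on the arrays, 11 were above background on at least 1 of the 4 arrays. Fcgr1, a high-affinity Fc receptor gene, rose by 2.33 (SE 0.15) and Mertk, a receptor for apoptotic cells, by 1.76 (SE 0.26). The mannose receptor gene Mrc1 fell by 0.67 and the CSF1 receptor gene Csf1r by 0.42, while the other 7 did not pass the test. Markers of resident peritoneal macrophages had a summed level (log2) of 13.71 at 4 h against 13.81 at 2 h in labelled-knockout cells. In wild-type cells it was lower, 11.90 at 4 h against 11.83 at 2 h. Of 10 such genes tested, 0 rose and 2 fell (11.3% and 9.72% over all genes). The part of this difference between genotypes in the comparisons below was not tested. Fibroblast and mesothelial markers were also present, at a summed level (log2 of the summed linear values) of 9.33 at 4 h against 8.88 at 2 h in labelled-knockout cells and 10.90 at 4 h against 10.48 at 2 h in wild-type cells. Of the 11 such genes on the arrays 7 were tested, of which Dcn (0.62), Col1a2 (0.66) and Col3a1 (0.53) rose and none fell. With probe sets that several transcripts can share left out the Col3a1 change was -0.11 (adjusted p = 0.767). Msln, Krt18 and Krt19 were at background on all 4 arrays. The other 8, with the mesothelial gene Upk3b and the epithelial gene Krt8 among them, were above it on at least 1. In bulk RNA, more cells of a type and more RNA per cell cannot be told apart. Neutrophil markers had a summed level of 12.01 at 4 h against 11.65 at 2 h in labelled-knockout cells and 11.86 at 4 h against 11.35 at 2 h in wild-type cells. Of 8 on the arrays 6 were above background on at least 1 of the 4, and Ltf and Cxcr2 were at background on all 4. Of 6 tested, Mmp9 (0.56) and S100a8 (0.50) rose and 0 fell. Among other cell types, the B cell marker Cd22 (1 of 5 tested) fell by 0.64 and the eosinophil marker Siglecf, the 1 tested, by 0.70. The part of other cell types in the changes below was not tested. Fcgr1, Mertk, Mrc1, Csf1r, Dcn, Col1a2, Col3a1, Mmp9, S100a8, Cd22 and Siglecf were named after their values were seen. Calls lost without single arrays of the 4 were those of Mrc1, Csf1r, Dcn, Col1a2, Col3a1, Mmp9, S100a8, Cd22 and Siglecf (adjusted p up to 0.246 for Col3a1, without the labelled-knockout 2 h array). For Dcn the change was 0.18 (adjusted p = 0.225) with all its probe sets averaged, and likewise 0.32 (adjusted p = 0.104) for Col1a2, 0.21 (adjusted p = 0.215) for Col3a1 and -0.31 (adjusted p = 0.153) for Cd22. For Col1a2 the change was 0.20 (adjusted p = 0.460) without probe sets that several transcripts can share.

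The largest rises joined an effector of cell death, antimicrobial and interferon-induced enzymes and several genes that were lower at 2 h than before LPS. Tnfsf10, which encodes the death ligand TRAIL, read 9.50 at 4 h against 5.32 at 2 h in labelled-knockout cells and 9.47 at 4 h against 4.79 at 2 h in wild-type cells. It was 21.5-fold higher at 4 h (log2 change 4.43, SE 0.16, adjusted p = 0.000154), and the genotypes differed by less than 1 log2 unit in that rise. Nos2, the inducible nitric oxide synthase gene, read 7.63 at 4 h against 2.93 at 2 h in labelled-knockout cells and 6.32 at 4 h against 2.86 at 2 h in wild-type cells. Both 2 h values were at background, so Nos2 rose at least 13.4-fold (log2 change 4.08, SE 0.34, adjusted p = 0.000799), and its 0 h and 1 h values were at background too. Parp11, a mono-ADP-ribosyltransferase gene, read 9.49 at 4 h against 5.93 at 2 h in labelled-knockout cells and 9.25 at 4 h against 5.24 at 2 h in wild-type cells and rose 13.8-fold. Uba7, the E1 enzyme that charges the ubiquitin-like protein ISG15, rose 13.1-fold (3.85 in labelled-knockout and 3.56 in wild-type cells). Slamf1, a receptor of the SLAM family, rose 12.9-fold and Slco3a1, an organic anion transporter gene, 13.8-fold. Lipg, the endothelial lipase gene, read 8.06 at 4 h against 4.88 at 2 h in labelled-knockout cells and 8.01 at 4 h against 3.49 at 2 h in wild-type cells, a rise of 3.19 in labelled-knockout and 4.51 in wild-type cells. Ms4a4c, a membrane protein gene of the MS4A family, rose by 3.39 (SE 0.24).

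Several of these 15 genes had been higher before LPS than at 2 h. Hhex, a homeobox repressor gene, read 8.42, 6.55, 3.63 and 8.0 at 0, 1, 2 and 4 h in labelled-knockout cells and 8.59, 6.38, 4.50 and 8.09 in wild-type cells. It was lower at each time up to 2 h and near its 0 h level at 4 h (log2 change 3.98, SE 0.24, adjusted p = 0.000357 between 2 h and 4 h). Tifab, which encodes a relative of the signalling adaptor TIFA, read 7.34, 5.48, 2.53 and 5.98 at 0, 1, 2 and 4 h in labelled-knockout cells and 7.48, 5.99, 2.74 and 6.22 in wild-type cells. It was at background in both 2 h arrays and rose at least 7.30-fold by 4 h without regaining its 0 h level. Rnf180, a ubiquitin ligase gene, rose by 3.55 (SE 0.14), and Cenpj and Sass6, genes of centriole assembly, by 3.49 (SE 0.13) and 4.10 (SE 0.40). Cenpj read 3.19 in wild-type cells at 2 h, at background, and 3.29 in labelled-knockout cells. The last of the 15, 1600014C10Rik, rose by 3.98 (SE 0.11).

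**Figure D2:**
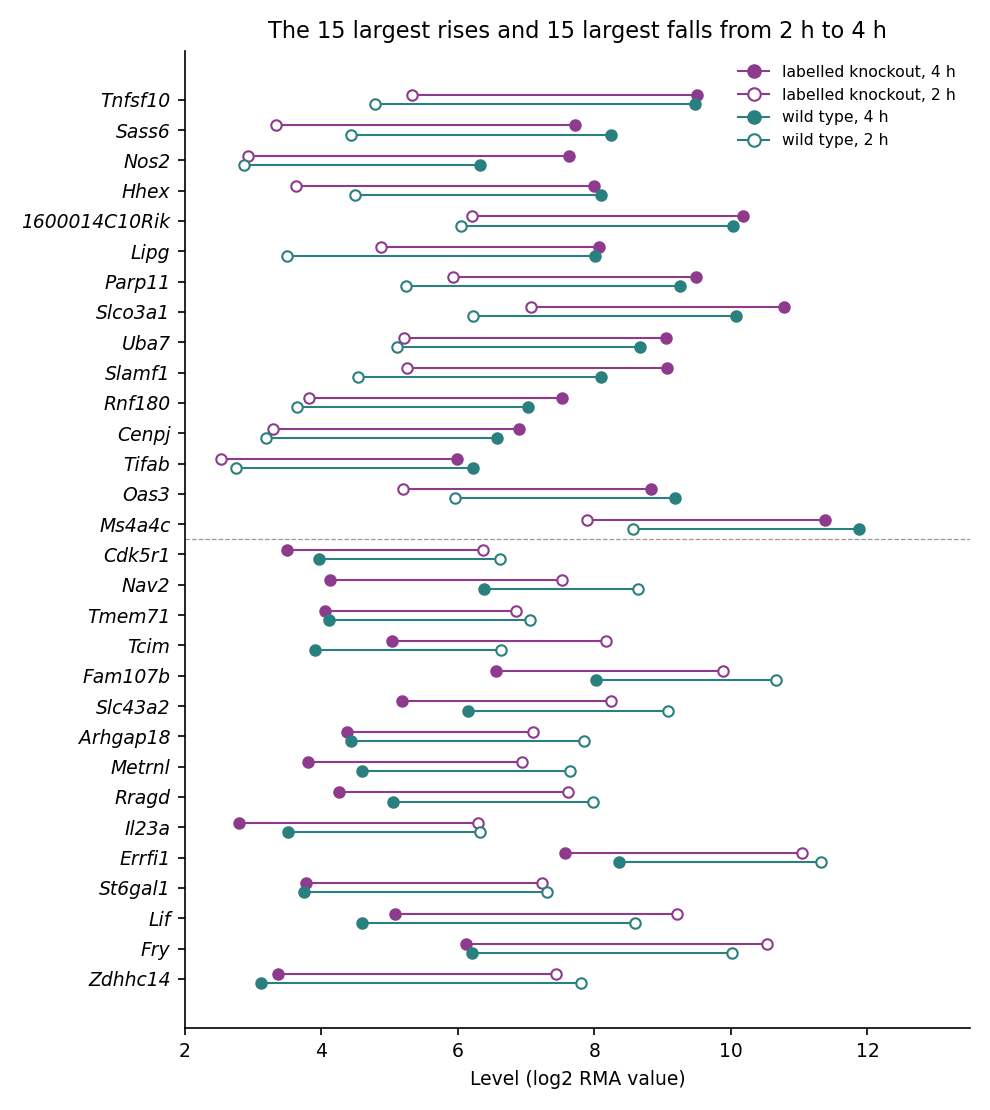
Levels (log2 RMA value, horizontal axis) of the 15 genes of largest rise and the 15 of largest fall between 2 h and 4 h, with filled circles for 4 h and open circles for 2 h, and labelled knockout drawn above wild type. In each of the 30 genes the filled circles of both genotypes lie on the same side of the open ones, by at least 2.26 log2 units.

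The largest falls held a cytokine pair and a set of signalling, trafficking and membrane genes. Zdhhc14, a palmitoyltransferase gene, read 3.36 at 4 h against 7.44 at 2 h in labelled-knockout cells and 3.11 at 4 h against 7.81 at 2 h in wild-type cells and fell 21.0-fold (log2 change -4.39, SE 0.18, adjusted p = 0.000156). Fry, which encodes a large scaffold of NDR kinases, read 6.12 at 4 h against 10.53 at 2 h in labelled-knockout cells and 6.21 at 4 h against 10.02 at 2 h in wild-type cells. Its level had stayed between 10.02 and 10.75 on the 6 arrays up to 2 h and dropped 17.2-fold within the interval. Lif, a cytokine of the IL-6 family, read 5.07 at 4 h against 9.22 at 2 h in labelled-knockout cells and 4.59 at 4 h against 8.59 at 2 h in wild-type cells and fell 16.8-fold. Il23a, the gene of the subunit specific to IL-23, read 2.80 at 4 h against 6.30 at 2 h in labelled-knockout cells and 3.50 at 4 h against 6.33 at 2 h in wild-type cells, and only its labelled-knockout 4 h value was at background. St6gal1, a sialyltransferase gene, fell by 3.51 (SE 0.12) and Errfi1, a feedback inhibitor of the EGF receptor, by 3.21 (SE 0.17) on the log2 scale. Rragd, a Rag GTPase of nutrient sensing, fell by 3.15, Arhgap18 by 3.06 and the amino acid transporter gene Slc43a2 by 2.999. Fam107b fell by 2.98, Tcim by 2.93, Tmem71 by 2.87 and Nav2 by 2.83. Cdk5r1, an activator of the kinase CDK5, fell by 2.76, and Metrnl, which encodes a secreted meteorin-like protein, by 3.09.

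For 21 of these 30 genes another probe set lay above background on at least 2 of the 4 arrays. All such probe sets moved the same way in both genotypes in 18 of the 21. Fry, Metrnl and Nav2 were the exceptions. With probe sets that several transcripts can share left out, the Metrnl change was -0.18 (adjusted p = 0.39) and the Zdhhc14 change -1.44 (adjusted p = 0.00314). With the mean of all probe sets all 30 were still called in the same direction, but the log2 change was over 1.5 times smaller for 15 of them, 4 rises and 11 falls. Among the falls it was -1.03 for Fry, -0.45 for Nav2, -0.84 for Cdk5r1, -1.08 for Rragd, -1.10 for Metrnl and -1.66 for Arhgap18. It was -1.68 for Slc43a2, -1.76 for St6gal1, -1.99 for Errfi1, -2.15 for Lif and -2.47 for Zdhhc14. Among the rises it was 1.83 for 1600014C10Rik, 1.83 for Rnf180, 2.16 for Slamf1 and 2.42 for Parp11. The mean takes in probe sets at background on all 4 arrays, such as some of Fry and 1600014C10Rik, which makes the change smaller. A smaller mean is thus not by itself a difference between probe sets that detect the transcript. Another probe set of 1600014C10Rik, above background on all 4, changed by 3.16 in labelled-knockout and 3.34 in wild-type cells. One of Fry, above background on 3, changed by 0.083 in labelled-knockout and 0.13 in wild-type cells.

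Interferon-stimulated antiviral genes rose in large number. Of 36 measured members, 28 rose and 0 fell, against 11.3% rising and 9.72% falling over all genes, and 24 of them rose at least 2-fold in both genotypes. The median change of the list was 1.48, with 1.57 in labelled-knockout and 1.26 in wild-type cells, against 0.00 over all genes. Oas3, an oligoadenylate synthetase that activates RNase L, read 8.82 at 4 h against 5.19 at 2 h in labelled-knockout cells and 9.18 at 4 h against 5.96 at 2 h in wild-type cells. Every 4 h value stood above every 2 h value, and the rise was 10.7-fold (log2 change 3.42, SE 0.13, adjusted p = 0.000154). Ifit1bl1 and Ifit3, genes of RNA-binding IFIT proteins, rose 10.4-fold and 7.14-fold. Ifit3 read 11.40 at 4 h against 8.23 at 2 h in labelled-knockout cells and 11.67 at 4 h against 9.17 at 2 h in wild-type cells. Herc6, the ligase that attaches ISG15 in mice, rose by 2.17 (SE 0.15). Isg20, an exonuclease gene, and Bst2, which encodes tetherin, rose by 3.28 (SE 0.32) and 3.02 (SE 0.25) and were named after their values were seen. Without any 1 of the 4 arrays, between 24 and 26 of the 36 rose.

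The 8 members that did not pass the test included genes that were already bright at 2 h. Rsad2, which encodes the antiviral enzyme viperin, read 13.72 at 4 h against 13.53 at 2 h in labelled-knockout cells and 13.57 at 4 h against 13.33 at 2 h in wild-type cells. Ifit1 read 13.43 at 4 h against 13.12 at 2 h in labelled-knockout cells and 13.41 at 4 h against 12.96 at 2 h in wild-type cells. Both values of each gene at 2 h lay within 0.5 log2 units of those at 4 h, near the top of the array scale. With the mean of all probe sets Rsad2 passed with a change of 0.95 (adjusted p = 0.00151), and with trend and robust settings it passed at 0.21 (adjusted p = 0.0417). These 2 genes were named after their values were seen.

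Promoters from 250 bases before to 50 bases after the start, taken from RefSeq (assembly GRCm38.p6), were searched on both strands for the ISRE core, GAAA, any 2 bases and GAAA. The sequences of the 4 named genes of largest rise whose promoter holds it are shown 5′ to 3′ along the gene's strand with the ISRE in capitals, read as its reverse complement where it lies on the other strand. They stand for Parp11 (chr6:127446590-127446889, plus strand), Oas3 (chr5:120777610-120777909, minus strand), Ifit1bl1 (chr19:34599378-34599677, minus strand) and Ifit3 (chr19:34583279-34583578, plus strand), which holds 2. Those of the falling genes Fry (chr5:150259680-150259979, plus strand) and Lif (chr11:4257318-4257617, plus strand) are set beside them. Fry holds none of the motifs searched, and capitals in Lif mark the NF-kB pattern, GGG and CC with any 5 bases between, at 4 places, some overlapping, and the AP-1 core TGANTCA.
Parp11: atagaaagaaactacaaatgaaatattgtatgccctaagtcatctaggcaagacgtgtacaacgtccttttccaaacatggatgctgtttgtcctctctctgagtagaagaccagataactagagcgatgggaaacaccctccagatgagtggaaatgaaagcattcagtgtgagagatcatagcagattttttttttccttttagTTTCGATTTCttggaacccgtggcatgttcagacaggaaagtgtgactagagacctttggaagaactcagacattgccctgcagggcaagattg
Oas3: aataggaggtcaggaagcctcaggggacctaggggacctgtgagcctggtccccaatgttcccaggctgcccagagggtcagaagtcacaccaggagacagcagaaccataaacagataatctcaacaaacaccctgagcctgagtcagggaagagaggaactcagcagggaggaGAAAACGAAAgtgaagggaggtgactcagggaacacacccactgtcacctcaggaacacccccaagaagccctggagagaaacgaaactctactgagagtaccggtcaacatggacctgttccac
Ifit1bl1: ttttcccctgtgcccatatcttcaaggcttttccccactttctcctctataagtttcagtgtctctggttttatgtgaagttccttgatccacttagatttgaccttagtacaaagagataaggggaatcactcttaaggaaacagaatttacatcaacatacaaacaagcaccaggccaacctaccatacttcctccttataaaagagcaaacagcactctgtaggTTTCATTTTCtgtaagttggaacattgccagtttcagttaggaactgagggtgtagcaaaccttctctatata
Ifit3: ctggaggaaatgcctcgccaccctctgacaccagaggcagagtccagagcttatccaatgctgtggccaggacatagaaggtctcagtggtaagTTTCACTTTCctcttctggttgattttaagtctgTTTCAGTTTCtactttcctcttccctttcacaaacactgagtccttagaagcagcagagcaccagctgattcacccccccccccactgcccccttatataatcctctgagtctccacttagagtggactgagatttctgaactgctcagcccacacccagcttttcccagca
Fry: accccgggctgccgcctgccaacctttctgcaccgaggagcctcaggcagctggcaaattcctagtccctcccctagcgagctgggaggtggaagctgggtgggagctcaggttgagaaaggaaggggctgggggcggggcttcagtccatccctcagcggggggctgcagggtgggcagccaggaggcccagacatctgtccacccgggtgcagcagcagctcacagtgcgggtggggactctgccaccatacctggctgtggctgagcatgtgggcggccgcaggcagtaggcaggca
Lif: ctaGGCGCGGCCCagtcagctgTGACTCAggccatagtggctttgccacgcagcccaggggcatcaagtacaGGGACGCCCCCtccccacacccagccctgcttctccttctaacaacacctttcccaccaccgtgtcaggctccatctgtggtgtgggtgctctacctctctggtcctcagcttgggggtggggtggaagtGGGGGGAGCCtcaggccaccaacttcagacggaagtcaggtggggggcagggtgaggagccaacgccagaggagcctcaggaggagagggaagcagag
The match of Parp11 began 44 bases before the start, that of Oas3 75, that of Ifit1bl1 23 and the first of Ifit3 156. Of the genes that rose, 1153 of 1412 had a promoter in the table, and 89 of them (7.72%) held the motif. Of those that fell, 26 of 991 (2.62%) held it, and over all genes tested 387 of 10136 (3.82%). Among the 387 promoters of genes that rose between 0 h and 1 h, 21 held it (5.43%). The NF-kB pattern was in 70.9% of rising, 75.5% of falling and 70.2% of all promoters, TGANTCA in 6.42%, 8.68% and 6.82%, and the cyclic AMP element TGACGTCA in 3.64%, 2.72% and 3.34%. Of the 89 rising promoters with the ISRE, 56 also held the NF-kB pattern. A match describes letters, not a bound site. The check was void for the genes that moved at least 2-fold in both genotypes, of which 79.95% of the rising and 78.26% of the falling ones had a promoter, and for the antiviral list, with 25 of 36.

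Other interferon-linked groups also held more rising than falling genes. Of 10 measured GBP and IRG genes, which encode GTPases that attack vacuoles holding microbes, 8 rose and 0 fell (11.3% and 9.72% over all genes). Their median change was 1.47. Gbp8 rose by 2.32 (SE 0.40) and Gbp6 by 1.89 (SE 0.32), and the wild-type 2 h value of Gbp8 was at background. Igtp and Irgm2, of the immunity-related GTPases, rose 2.42-fold and 2.27-fold. Igtp read 12.85 at 4 h against 11.65 at 2 h in labelled-knockout cells and 12.54 at 4 h against 11.19 at 2 h in wild-type cells. Leaving out the labelled-knockout 2 h array gave 3 that rose, leaving out the wild-type 4 h array gave 2, and each of the others gave 7. The test was missed with 1 of the 4 arrays left out by Gbp8 and Gbp6, at an adjusted p of up to 0.0784 for Gbp8 without the labelled-knockout 4 h array.

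Of 14 MHC class I processing and immunoproteasome genes, 10 rose and 0 fell (11.3% and 9.72% over all genes), with a median change of 1.19. Tap2, a chain of the peptide transporter of the endoplasmic reticulum, read 6.03 at 4 h against 3.42 at 2 h in labelled-knockout cells and 6.21 at 4 h against 3.75 at 2 h in wild-type cells and rose 5.803-fold (log2 change 2.54, SE 0.16, adjusted p = 0.000410). The immunoproteasome subunit genes Psmb10 and Psmb8 rose 3.70-fold and 2.76-fold, and Psme1, of the proteasome activator, 2.26-fold. The class I heavy chain genes H2-K1 and H2-D1 and the light chain gene B2m, named after their values were seen, stayed within 0.1 log2 units in each genotype. H2-K1 read 12.27 at 4 h against 12.32 at 2 h in labelled-knockout cells and 12.46 at 4 h against 12.44 at 2 h in wild-type cells. For Psmb8 the change was 0.73 with all its probe sets averaged.

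Of 18 interferon regulatory factors, STATs and Janus kinases, 8 rose and 1 fell (11.3% and 9.72% over all genes). Leaving out 1 of the 4 arrays, 5 to 6 rose and 1 fell. Irf7, the factor that amplifies interferon production, read 9.59 at 4 h against 6.89 at 2 h in labelled-knockout cells and 9.72 at 4 h against 6.78 at 2 h in wild-type cells and rose 7.04-fold (log2 change 2.82, SE 0.12, adjusted p = 0.000156). Stat2, of the interferon-activated complex, rose by 1.86 (SE 0.20) and Stat3, which carries IL-6 and IL-10 signals, by 1.34 (SE 0.11). Irf2, a repressor of interferon genes, and Irf8, a lineage factor of macrophages, were lower at 2 h than before LPS. Irf2 read 9.90, 10.001, 8.86 and 10.47 at 0, 1, 2 and 4 h in labelled-knockout cells and 9.66, 9.81, 8.43 and 10.43 in wild-type cells. Irf8 rose by 1.92 (SE 0.33). The member that fell was Irf4, a factor of alternative activation, by 1.87 (SE 0.21), named after its values were seen. Irf8 did not pass without 1 or more of the 4 arrays (adjusted p up to 0.0715 without the labelled-knockout 2 h array). For Stat3 the change was 0.72 with all its probe sets averaged, and likewise -1.08 for Irf4.

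The interferon-beta gene fell in the same interval. Ifnb1 read 2.88, 6.79, 4.24 and 2.92 at 0, 1, 2 and 4 h in labelled-knockout cells and 2.90, 6.34, 4.87 and 2.82 in wild-type cells. Both 4 h values were at background, so it was at least 2.75-fold lower at 4 h than at 2 h (log2 change -1.68, SE 0.24, adjusted p = 0.00513). Of 6 measured interferon and receptor genes 0 rose and 2 fell (11.3% and 9.72% over all genes). The other that fell was Ifngr1, a chain of the interferon-gamma receptor, by 0.86 (SE 0.21). Ifnar2 and Ifngr2 had changes of 0.39 (SE 0.14) and 0.68 (SE 0.25) and did not pass the test. The call of Ifngr1 was lost without 1 or more of the 4 arrays, and its change was -0.73 without the labelled-knockout 4 h array.

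**Figure D3:**
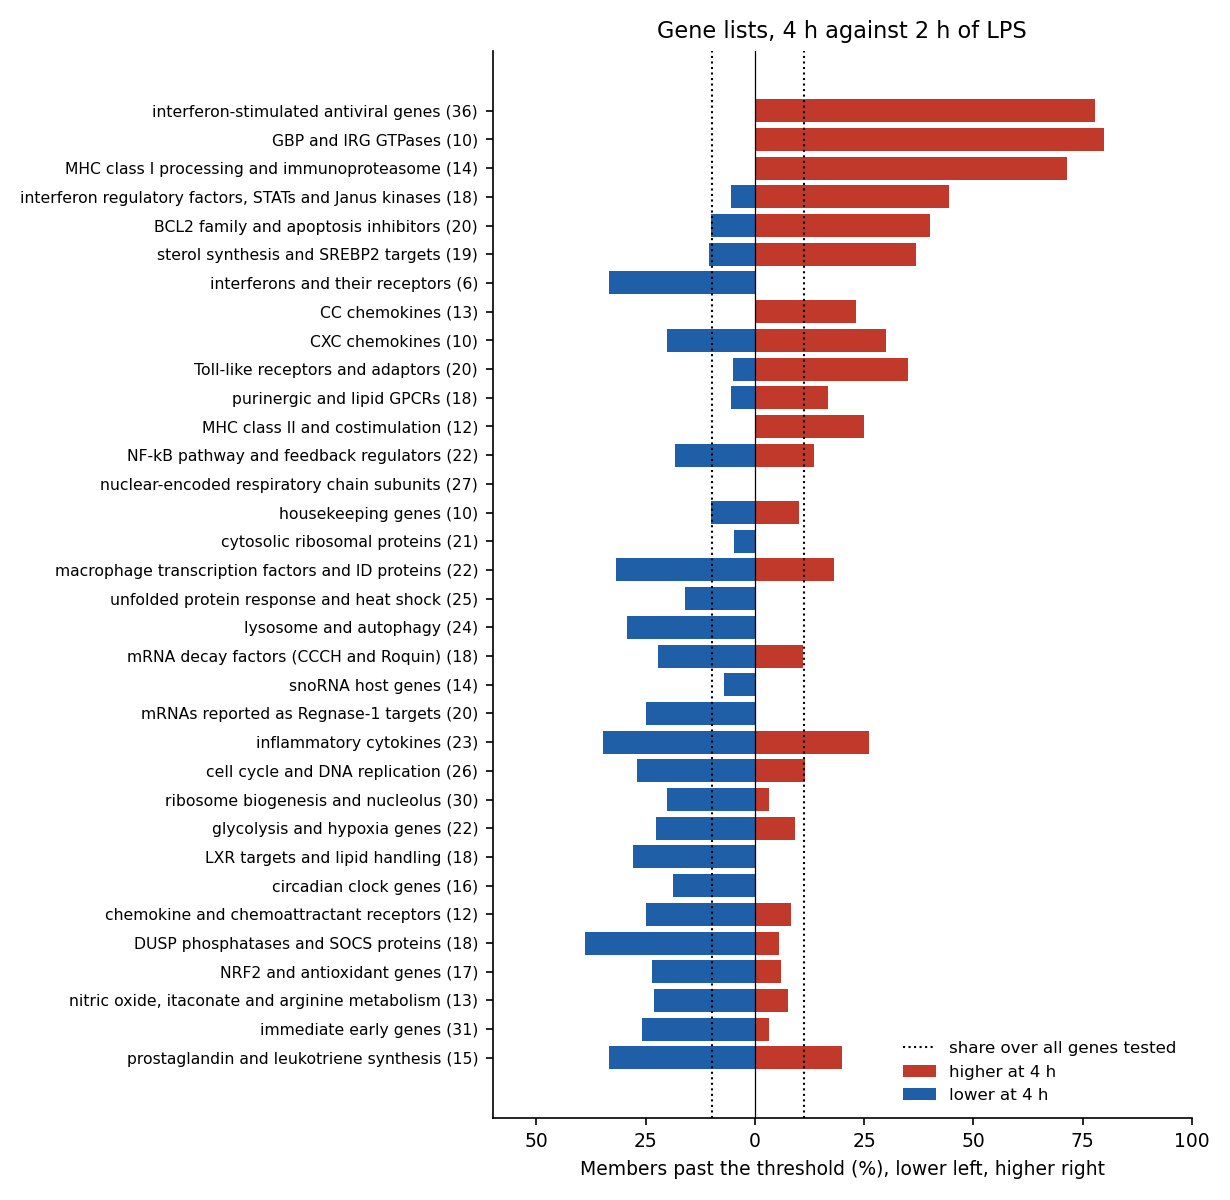
Share of the measured members of 34 gene lists that rose (right, red) or fell (left, blue) between 2 h and 4 h, in percent, with the number measured in brackets and dotted lines at the share over all genes (11.3% rising, 9.72% falling). Lists run downwards by their median change, and the 3 at the top are the interferon-stimulated, GBP and IRG and MHC class I processing genes, of which 28 of 36, 8 of 10 and 10 of 14 members rose and none fell.

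Receptors for microbes moved unevenly. Of 20 Toll-like receptor and adaptor genes, 7 rose and 1 fell (11.3% and 9.72% over all genes). Tlr3, the receptor for double-stranded RNA, read 10.67 at 4 h against 7.51 at 2 h in labelled-knockout cells and 10.84 at 4 h against 8.12 at 2 h in wild-type cells and rose 7.67-fold (log2 change 2.94, SE 0.14, adjusted p = 0.000201). Tlr4, the gene of the LPS receptor, read 9.06, 8.83, 7.79 and 8.96 at 0, 1, 2 and 4 h in labelled-knockout cells and 9.24, 8.54, 7.26 and 8.52 in wild-type cells. It was at its lowest at 2 h and rose 2.32-fold by 4 h. Tlr6, a partner of TLR2, rose by 0.95 (SE 0.15), and Tlr13, a mouse receptor for bacterial ribosomal RNA, fell by 1.14 (SE 0.15). The number rising was between 2 and 3 without any 1 of the 4 arrays. When 1 of the 4 arrays was left out, the threshold was missed by Tlr4 and Tlr6, at an adjusted p of up to 0.0571 for Tlr6 without the labelled-knockout 2 h array. For Tlr4 the change was 0.57 with all its probe sets averaged.

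Among 12 MHC class II and costimulatory genes, 3 rose and 0 fell, against 11.3% and 9.72% over all genes. These were the costimulatory ligand gene Cd86 (1.69), the checkpoint ligand gene Cd274 (1.08) and Cd40 (1.28), the receptor for T cell help. Cd86 read 9.40 at 4 h against 7.83 at 2 h in labelled-knockout cells and 8.80 at 4 h against 6.98 at 2 h in wild-type cells. Pdcd1lg2, a further checkpoint ligand gene, had a change of 0.56 (SE 0.21), was at background on both 2 h arrays and did not pass. Cd40 did not pass without 1 or more of the 4 arrays, and its change was 0.94 without the labelled-knockout 2 h array.

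Cytokine genes split. Of 23 measured, 6 rose and 8 fell (11.3% and 9.72% over all genes), and the median change was -0.19. Among those that rose, Il15, which sustains natural killer cells, read 10.03 at 4 h against 8.17 at 2 h in labelled-knockout cells and 10.25 at 4 h against 8.55 at 2 h in wild-type cells (log2 change 1.79, SE 0.12, adjusted p = 0.000478). Il18 and Il12a, whose products act on interferon-gamma production, rose by 2.50 (SE 0.17) and 2.46 (SE 0.30) and were named after their values were seen. Il12b, the gene of the other IL-12 chain, did not pass (7.09 at 4 h against 6.98 at 2 h in labelled-knockout cells and 8.62 at 4 h against 8.30 at 2 h in wild-type cells, adjusted p = 0.739).

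Tnf was among those that fell and read 11.64 at 4 h against 12.30 at 2 h in labelled-knockout cells and 12.01 at 4 h against 12.51 at 2 h in wild-type cells (log2 change -0.58, SE 0.13, adjusted p = 0.0267), so it stayed within 1 log2 unit of its 2 h level. Tnfsf9 and Osm, which encode the 4-1BB ligand and oncostatin M, and the growth factor gene Csf2 fell by 2.13, 2.34 and 2.25 on the log2 scale and were named after their values were seen. Vegfa, an angiogenic factor gene, fell by 1.17 (SE 0.14). Il1b read 12.91 at 4 h against 13.23 at 2 h in labelled-knockout cells and 13.19 at 4 h against 13.28 at 2 h in wild-type cells and did not pass the test. Il10, an anti-inflammatory cytokine gene, read 4.80 at 4 h against 6.90 at 2 h in labelled-knockout cells and 4.89 at 4 h against 7.53 at 2 h in wild-type cells, lower at 4 h in both genotypes, and missed the threshold (log2 change -2.37, SE 0.68, adjusted p = 0.0538). Without either 1 h array its adjusted p was 0.00205, and its 1 h values were 4.37 in labelled-knockout and 7.21 in wild-type cells. Calls lost without single arrays of the 4 were those of Tnf and Csf2 (adjusted p up to 0.149 for Tnf, without the labelled-knockout 4 h array). For Vegfa the change was -0.46 with all its probe sets averaged.

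**Figure D4:**
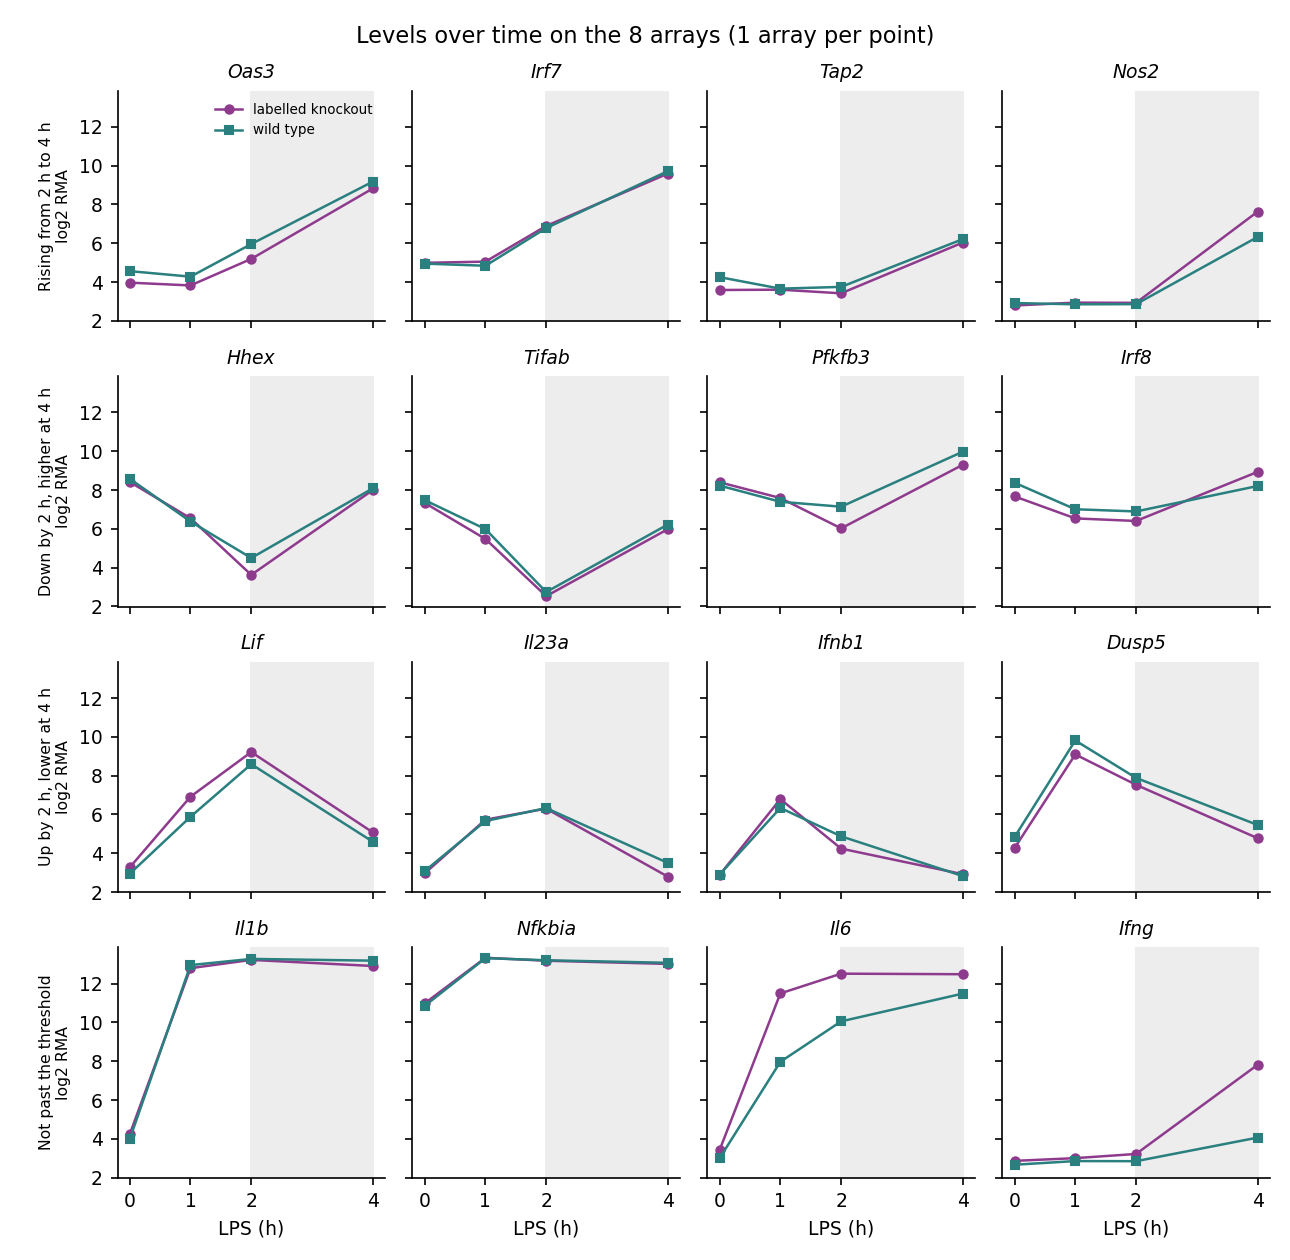
Levels (log2 RMA value) of 16 genes at 0, 1, 2 and 4 h of LPS, 1 array per point, with labelled knockout in purple circles, wild type in green squares and the interval between 2 h and 4 h shaded. The upper row rises in the shaded interval, the second row falls to 2 h and is higher at 4 h, the third row peaks at 1 h or 2 h and falls, and the last row holds 4 genes that did not pass the test.

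Chemokine genes moved in both directions. Of 10 CXC chemokine genes 3 rose and 2 fell, against 11.3% and 9.72% over all genes. The counts were 1 to 2 rising and 0 to 1 falling when 1 of the 4 arrays was left out. Cxcl11, a ligand of the receptor CXCR3, read 10.50 at 4 h against 6.97 at 2 h in labelled-knockout cells and 8.596 at 4 h against 5.93 at 2 h in wild-type cells and rose 8.54-fold (log2 change 3.09, SE 0.39, adjusted p = 0.00307). Cxcl10, of the same receptor, rose by 0.73 (SE 0.14) from a level that was already high (13.31 at 4 h against 12.70 at 2 h in labelled-knockout cells and 13.29 at 4 h against 12.45 at 2 h in wild-type cells). Cxcl9, the third of these ligands, read 8.70 at 4 h against 7.0 at 2 h in labelled-knockout cells and 9.01 at 4 h against 7.03 at 2 h in wild-type cells and missed the threshold (log2 change 1.84, SE 0.56, adjusted p = 0.0672). It passed with the 4 late arrays alone (adjusted p = 0.00169) and without either 1 h array (adjusted p = 0.0421), and its adjusted p over all alternatives lay between 0.00169 and 0.350. Cxcl16 rose by 0.90 (SE 0.14). The neutrophil attractants Cxcl1 and Cxcl2 fell by 1.11 (SE 0.22) and 0.56 (SE 0.12). After centring on housekeeping genes Cxcl2 no longer passed (adjusted p = 0.0511). The test was missed with 1 of the 4 arrays left out by Cxcl10, Cxcl16, Cxcl1 and Cxcl2, at an adjusted p of up to 0.132 for Cxcl2 without the labelled-knockout 4 h array. For Cxcl11 the change was 1.85 with all its probe sets averaged.

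Of 13 CC chemokine genes 3 rose, all of them attractants of monocytes, and 0 fell (11.3% and 9.72% over all genes). With 1 of the 4 arrays left out, 1 to 3 rose and 0 fell. Ccl12 read 7.83 at 4 h against 5.07 at 2 h in labelled-knockout cells and 7.62 at 4 h against 5.71 at 2 h in wild-type cells and rose 5.07-fold, Ccl7 rose by 1.04 (SE 0.18) and Ccl2 by 0.70 (SE 0.10). Ccl5 had a change of 0.54 (SE 0.51) and did not pass the test. Ccl6 had a change of -0.38 and missed the threshold (adjusted p = 0.0529). Ccl7 and Ccl2 did not pass without 1 or more of the 4 arrays (adjusted p up to 0.0750 for Ccl7 without the labelled-knockout 4 h array).

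More immediate early genes, which respond without new protein synthesis, fell than rose. Of 31 measured, 1 rose and 8 fell (11.3% and 9.72% over all genes), with a median change of -0.44. Egr1, a zinc finger factor, read 6.85, 12.72, 9.18 and 6.57 at 0, 1, 2 and 4 h in labelled-knockout cells and 7.20, 12.45, 8.66 and 7.28 in wild-type cells. It peaked at 1 h and at 4 h lay near its 0 h level (log2 change -1.996, SE 0.29, adjusted p = 0.00554). Maff, a small Maf factor gene, fell by 2.16 (SE 0.20), Csrnp1 by 1.23, Egr2 by 1.18 and the small GTPase gene Rhob by 1.11. Fos read 9.03, 11.25, 7.54 and 7.35 at 0, 1, 2 and 4 h in labelled-knockout cells and 8.82, 11.53, 7.41 and 6.87 in wild-type cells, with no called change in the late interval (adjusted p = 0.226). The member that rose was Jun, named after its values were seen, which read 10.07, 10.04, 5.39 and 7.35 at 0, 1, 2 and 4 h in labelled-knockout cells and 10.05, 10.31, 6.399 and 7.21 in wild-type cells. The call of Jun was lost without the labelled-knockout 4 h array, where its change was 1.11. For Csrnp1 the change was -0.62 with all its probe sets averaged.

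Among feedback regulators of signalling more fell than rose. Of 18 DUSP phosphatase and SOCS genes 1 rose and 7 fell (11.3% and 9.72% over all genes). Dusp5, a phosphatase of nuclear ERK, read 4.78 at 4 h against 7.53 at 2 h in labelled-knockout cells and 5.46 at 4 h against 7.88 at 2 h in wild-type cells and fell 6.02-fold (log2 change -2.59, SE 0.13, adjusted p = 0.000212). Dusp7 and Dusp3, also phosphatases of MAP kinases, fell by 2.03 (SE 0.22) and 1.30 (SE 0.14), and Socs4 by 0.64. The member that rose was Socs2, an inhibitor of growth hormone signals (0.72, named after its values were seen). Between 3 and 6 fell without any 1 of the 4 arrays, with 3 without either labelled-knockout array. When 1 of the 4 arrays was left out, the threshold was missed by Socs4 and Socs2, at an adjusted p of up to 0.0709 for Socs2 without the labelled-knockout 4 h array. For Dusp3 the change was -0.72 with all its probe sets averaged, and likewise -0.27 (adjusted p = 0.131) for Socs4 and 0.25 (adjusted p = 0.126) for Socs2. For Socs4 the change was -0.44 (adjusted p = 0.0806) without probe sets that several transcripts can share.

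The NF-kB pathway list was divided, with 3 of 22 rising and 4 falling and a median of -0.04, against 11.3% rising and 9.72% falling over all genes, so that the rising count was near that share. Leaving out 1 of the 4 arrays, 0 to 1 rose and 1 to 2 fell. Nfkbid, a nuclear inhibitor protein gene, read 8.06 at 4 h against 9.03 at 2 h in labelled-knockout cells and 7.58 at 4 h against 8.91 at 2 h in wild-type cells and fell 2.23-fold. Tnfaip3, the ubiquitin-editing A20 gene, fell by 0.42, the inhibitor gene Nfkbie by 0.39 and Rel, a subunit gene, by 0.69; these 3 were named after their values were seen. The signalling genes that rose were Traf2 (0.95), Birc2 (0.76) and Traf1 (0.58), of which Traf2 was at background in labelled-knockout cells at 2 h. Nfkbia, the main inhibitor gene, read 13.02 at 4 h against 13.18 at 2 h in labelled-knockout cells and 13.08 at 4 h against 13.21 at 2 h in wild-type cells and did not pass. Tnfaip3, Nfkbie, Rel, Traf2, Birc2 and Traf1 did not pass without 1 or more of the 4 arrays. Without the labelled-knockout 4 h array the Rel change was -0.48. For Tnfaip3 the change was -0.34 (adjusted p = 0.122) with all its probe sets averaged, and likewise 0.088 (adjusted p = 0.734) for Traf1.

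Among 18 mRNA decay factors 2 rose, near the 11.3% over all genes, and 4 fell, against 9.72%. The counts were 1 to 2 rising and 2 to 3 falling when 1 of the 4 arrays was left out. Tob1, which recruits the deadenylase, read 5.71 at 4 h against 8.58 at 2 h in labelled-knockout cells and 6.04 at 4 h against 8.06 at 2 h in wild-type cells and fell 5.45-fold (log2 change -2.45, SE 0.21, adjusted p = 0.000842). Zfp36l1, a binder of AU-rich elements, fell by 1.78 (SE 0.18) and Btg1 by 0.65, while Rc3h1, which encodes Roquin-1, fell by 0.66. Zc3h12d, of the Regnase family, read 5.99, 5.09, 3.45 and 5.67 at 0, 1, 2 and 4 h in labelled-knockout cells and 6.36, 5.71, 4.32 and 5.63 in wild-type cells, lowest at 2 h, and rose by 1.77 (SE 0.21) in the late interval. Zfp36l2 rose by 0.53. Rc3h1 and Zfp36l2 were named after their values were seen. Calls lost without single arrays of the 4 were those of Btg1, Rc3h1 and Zfp36l2 (adjusted p up to 0.176 for Zfp36l2, without the wild-type 2 h array). For Tob1 the change was -1.21 with all its probe sets averaged, and likewise -1.17 for Zfp36l1 and -0.98 for Btg1. For Btg1 the change was -1.66 without probe sets that several transcripts can share.

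Of 20 transcripts that earlier work names as Regnase-1 targets, 5 fell and 0 rose (9.72% and 11.3% over all genes). With 1 of the 4 arrays left out, 0 rose and 2 to 3 fell. Genes of this list may have been chosen on these samples, and the list is then no independent evidence of a direction. Besides Nfkbid, Cxcl1, Cxcl2 and Rel, the fifth was Tfrc, the transferrin receptor gene, which read 10.68 at 4 h against 11.45 at 2 h in labelled-knockout cells and 9.30 at 4 h against 10.30 at 2 h in wild-type cells. It fell by 0.77 in labelled-knockout and 1.00 in wild-type cells. Il6 read 12.49 at 4 h against 12.52 at 2 h in labelled-knockout cells and 11.49 at 4 h against 10.06 at 2 h in wild-type cells, nearly level in labelled-knockout cells and higher at 4 h in wild-type cells. Ptgs2, which encodes the cyclooxygenase COX-2, read 12.54 at 4 h against 12.85 at 2 h in labelled-knockout cells and 12.62 at 4 h against 12.45 at 2 h in wild-type cells, and Calcr, the calcitonin receptor gene, read 5.91 at 4 h against 5.19 at 2 h in labelled-knockout cells and 2.66 at 4 h against 3.01 at 2 h in wild-type cells, at background in both wild-type arrays. None of the 3 passed the test, in which a difference between genotypes that changes with time counts as error. For Tfrc the change was -0.58 with all its probe sets averaged.

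Of 18 LXR target and lipid genes 0 rose and 5 fell (11.3% and 9.72% over all genes). Leaving out 1 of the 4 arrays, 0 rose and 3 to 4 fell. Pparg, a lipid-sensing nuclear receptor gene, read 3.09 at 4 h against 4.60 at 2 h in labelled-knockout cells and 4.17 at 4 h against 6.35 at 2 h in wild-type cells and fell 3.59-fold, with the labelled-knockout 4 h value at background. Scd2, a fatty acid desaturase gene, fell by 1.22 (SE 0.16), the cholesterol exporter gene Abca1 by 0.85 and Apoc2, named after its values were seen, by 0.52. Fabp4, a fatty acid binding protein gene, fell by 2.17 (SE 0.26). Its change was -0.23 (adjusted p = 0.662) with probe sets that several transcripts can share left out. The probe set then used read 2.84 to 3.55 on the 4 arrays, near background. Another Fabp4 probe set, of the kind left out, changed by -1.92 in labelled-knockout and -2.69 in wild-type cells. The test was missed with 1 of the 4 arrays left out by Abca1 and Apoc2, at an adjusted p of up to 0.179 for Apoc2 without the wild-type 4 h array. For Scd2 the change was -0.67 with all its probe sets averaged, and likewise -0.46 (adjusted p = 0.0926) for Abca1 and -1.22 for Fabp4.

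Of 19 sterol synthesis genes 7 rose, against 11.3% over all genes, and 2 fell, near the 9.72% over all genes. Ch25h, which makes the antiviral 25-hydroxycholesterol, read 10.04 at 4 h against 7.97 at 2 h in labelled-knockout cells and 10.60 at 4 h against 8.61 at 2 h in wild-type cells and rose 4.08-fold. Fdft1 and Pmvk, enzymes of the pathway, rose by 0.86 (SE 0.13) and 0.76 (SE 0.17). Dhcr7, the enzyme of the last step to cholesterol, read 6.59 at 4 h against 8.4 at 2 h in labelled-knockout cells and 6.37 at 4 h against 8.25 at 2 h in wild-type cells and fell 3.59-fold (log2 change -1.85, SE 0.13, adjusted p = 0.000526), and Insig1 fell by 0.40, named after its values were seen. Between 2 and 5 rose without any 1 of the 4 arrays. Pmvk and Insig1 did not pass without 1 or more of the 4 arrays (adjusted p up to 0.214 for Insig1 without the labelled-knockout 2 h array). For Fdft1 the change was 0.54 with all its probe sets averaged. For Insig1 the change was -0.40 (adjusted p = 0.0573) without probe sets that several transcripts can share.

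Among 15 prostaglandin and leukotriene genes 3 rose and 5 fell (11.3% and 9.72% over all genes). The list's median of -0.60 was the lowest of the 34 lists. The counts were 1 to 3 rising and 2 to 7 falling when 1 of the 4 arrays was left out. Ptger2, the gene of a prostaglandin E2 receptor, read 7.28, 5.67, 7.90 and 5.04 at 0, 1, 2 and 4 h in labelled-knockout cells and 7.52, 5.92, 7.75 and 5.39 in wild-type cells. It was low at 1 h, high at 2 h and low again at 4 h (log2 change -2.61, SE 0.15, adjusted p = 0.000313 between 2 h and 4 h). Alox5ap, which presents arachidonate to 5-lipoxygenase, fell by 0.69 (SE 0.10). Ltc4s, Tbxas1 and Alox15, synthases of leukotriene C4, thromboxane and lipoxygenase products, fell by 1.07, 0.99 and 1.36. Pla2g4a, the phospholipase that frees arachidonate, rose by 1.64 (SE 0.26). The prostaglandin E synthase genes Ptges and Ptges2 rose by 1.34 (SE 0.21) and 0.59. Ltc4s, Tbxas1, Alox15 and Ptges2 were named after their values were seen. The calls of Ltc4s, Tbxas1, Alox15, Pla2g4a and Ptges2 were lost without 1 or more of the 4 arrays. Without the wild-type 2 h array the Ptges2 change was 0.54.

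Of 13 genes of nitric oxide, itaconate and arginine metabolism, 1, Nos2, rose and 3 fell (11.3% and 9.72% over all genes). With 1 of the 4 arrays left out, 1 rose and 1 to 2 fell. Arg1 and Arg2, arginases that compete with nitric oxide synthase for arginine, fell by 1.23 (SE 0.15) and 1.16 (SE 0.22). Arg1 read 9.75 at 4 h against 10.96 at 2 h in labelled-knockout cells and 7.06 at 4 h against 8.32 at 2 h in wild-type cells, lower at 4 h in both genotypes. Azin1, an inhibitor of antizyme, fell by 0.50. When 1 of the 4 arrays was left out, the threshold was missed by Arg2 and Azin1, at an adjusted p of up to 0.211 for Azin1 without the labelled-knockout 4 h array.

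Of 22 glycolysis and hypoxia genes 2 rose and 5 fell (11.3% and 9.72% over all genes). Leaving out 1 of the 4 arrays, 1 rose and 1 to 3 fell. Pfkfb3, which makes the activator of phosphofructokinase, read 8.401, 7.59, 6.03 and 9.30 at 0, 1, 2 and 4 h in labelled-knockout cells and 8.23, 7.396, 7.14 and 9.98 in wild-type cells. It was lowest at 2 h and rose 8.30-fold by 4 h, above its 0 h level. Hk1, a hexokinase gene, rose by 0.63, while Slc2a1, the glucose transporter gene, fell by 0.65 and Tpi1, Bnip3 and Egln3, named after their values were seen, by 0.54, 0.86 and 0.97. Vegfa was the fifth that fell. Hk1, Slc2a1, Tpi1, Bnip3 and Egln3 did not pass without 1 or more of the 4 arrays. Without the labelled-knockout 2 h array the Egln3 change was -0.97. For Pfkfb3 the change was 1.64 with all its probe sets averaged, and likewise -0.50 (adjusted p = 0.168) for Egln3.

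Among 17 NRF2 and antioxidant genes 1 rose and 4 fell (11.3% and 9.72% over all genes). The counts were 1 rising and 2 to 5 falling when 1 of the 4 arrays was left out. Keap1, the adaptor that marks NRF2 for degradation, read 5.70, 5.21, 4.26 and 7.04 at 0, 1, 2 and 4 h in labelled-knockout cells and 5.66, 4.79, 4.44 and 7.57 in wild-type cells and rose 7.75-fold between 2 h and 4 h. Srxn1, an NRF2 target that repairs peroxiredoxins, fell by 1.54 (SE 0.22), the autophagy receptor gene Sqstm1 by 0.97, the catalase gene Cat by 0.65 and Txnrd1, named after its values were seen, by 0.66. Calls lost without single arrays of the 4 were those of Cat and Txnrd1 (adjusted p up to 0.116 for Txnrd1, without the wild-type 2 h array). For Keap1 the change was 1.55 with all its probe sets averaged.

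Of 20 BCL2 family and apoptosis genes 8 rose, against 11.3% over all genes, and 2 fell, near the 9.72% over all genes. The median of the list was 0.33. Mlkl, the executioner of necroptosis, read 10.22 at 4 h against 7.77 at 2 h in labelled-knockout cells and 9.90 at 4 h against 7.25 at 2 h in wild-type cells and rose 5.87-fold (log2 change 2.55, SE 0.11, adjusted p = 0.000156). Casp8, the caspase at death receptors, rose by 1.49 (SE 0.11). The pro-apoptotic gene Bcl2l11 read 7.70 at 4 h against 10.13 at 2 h in labelled-knockout cells and 7.75 at 4 h against 10.15 at 2 h in wild-type cells and fell 5.35-fold, and Bcl2, named after its values were seen, fell by 1.35 (SE 0.18). For Bcl2 the change was -0.40 with all its probe sets averaged.

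Of 24 lysosome and autophagy genes 0 rose and 7 fell (11.3% and 9.72% over all genes). Npc1, which exports cholesterol from lysosomes, read 6.52 at 4 h against 7.74 at 2 h in labelled-knockout cells and 6.91 at 4 h against 8.19 at 2 h in wild-type cells and fell 2.38-fold. Atp6v0d2, a proton pump subunit gene, fell by 1.19 and the autophagosome genes Map1lc3b and Map1lc3a by 0.88 and 0.73. Between 3 and 5 fell without any 1 of the 4 arrays, with 3 when the labelled-knockout 2 h array was left out. The test was missed with 1 of the 4 arrays left out by Map1lc3a, at an adjusted p of up to 0.0557 without the labelled-knockout 2 h array. For Map1lc3b the change was -0.56 with all its probe sets averaged, and likewise -0.48 for Map1lc3a. For Map1lc3a the change was -0.22 (adjusted p = 0.501) without probe sets that several transcripts can share.

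Of 25 unfolded protein response and heat shock genes 0 rose and 4 fell (11.3% and 9.72% over all genes). Hspa1a, an inducible heat shock gene, read 3.45, 7.398, 6.45 and 4.84 at 0, 1, 2 and 4 h in labelled-knockout cells and 3.12, 6.79, 5.77 and 4.78 in wild-type cells and fell by 1.30 (SE 0.17) in the late interval. Its near-identical copy Hspa1b fell by 1.16. With probe sets that several transcripts can share left out the Hspa1b change was 0.01. The probe set then used read 3.42 to 3.54 on the 4 arrays, near background, so the 2 copies cannot be told apart here. Herpud1 and Dnajb9, targets of the unfolded protein response, fell by 1.40 and 1.09. Dnajb9 did not pass without 1 or more of the 4 arrays (adjusted p up to 0.167 without the labelled-knockout 2 h array). For Hspa1b the change was -0.71 with all its probe sets averaged.

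Receptors for attractants and small ligands differed by gene. Of 12 chemokine and chemoattractant receptor genes 1 rose and 3 fell (11.3% and 9.72% over all genes). Cxcr4, the receptor for CXCL12, read 7.78 at 4 h against 10.25 at 2 h in labelled-knockout cells and 7.68 at 4 h against 9.62 at 2 h in wild-type cells and fell 4.61-fold (log2 change -2.21, SE 0.16, adjusted p = 0.000513). The complement receptor genes C3ar1 and C5ar1 fell by 0.67 and 0.65, and Gpr84, a receptor for medium-chain fatty acids, rose by 0.94. Of 18 purinergic and lipid receptor genes 3 rose and 1, Ptger2, fell (11.3% and 9.72% over all genes). S1pr2, which encodes a sphingosine phosphate receptor, measured 6.53, 4.84, 3.93 and 6.25 at 0, 1, 2 and 4 h in labelled-knockout cells and 7.27, 5.56, 4.50 and 6.42 in wild-type cells and rose 4.33-fold between 2 h and 4 h. P2ry14, a UDP-glucose receptor gene, rose by 1.58 (SE 0.13), and Hcar2, the niacin receptor gene, by 0.96. The calls of C3ar1, C5ar1, Gpr84 and Hcar2 were lost without 1 or more of the 4 arrays. Without the wild-type 2 h array the change was 0.59 for Hcar2 and -0.63 for C5ar1. For S1pr2 the change was 1.28 with all its probe sets averaged.

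Of 22 macrophage transcription factors and ID proteins 4 rose and 7 fell (11.3% and 9.72% over all genes). Besides Hhex and Irf8, Maf read 10.38, 9.82, 9.28 and 10.79 at 0, 1, 2 and 4 h in labelled-knockout cells and 10.59, 10.19, 9.27 and 10.86 in wild-type cells and rose by 1.54 (SE 0.13) between 2 h and 4 h, and Batf, named after its values were seen, rose by 1.70, with the labelled-knockout 2 h value at background. Tfec, of the MITF family, fell by 1.42 (SE 0.22). The number falling was between 0 and 2 without any 1 of the 4 arrays, and 0 without the labelled-knockout 4 h array. When 1 of the 4 arrays was left out, the threshold was missed by Batf and Tfec, at an adjusted p of up to 0.138 for Batf without the labelled-knockout 2 h array.

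Among 26 cell cycle genes 3 rose, near the 11.3% over all genes, and 7 fell, against 9.72%. With 1 of the 4 arrays left out, 2 to 3 rose and 2 to 4 fell. The cyclin genes Ccne1 and Ccnd2 rose 7.63-fold and 5.86-fold. Ccne1 read 7.09 at 4 h against 4.30 at 2 h in labelled-knockout cells and 7.55 at 4 h against 4.47 at 2 h in wild-type cells. Mcm6, of the replicative helicase, rose by 1.00 (SE 0.16), and Cdkn1b, an inhibitor of cyclin-dependent kinases, fell by 0.97 (SE 0.12). Of 16 circadian clock genes 0 rose and 3 fell (11.3% and 9.72% over all genes). Those that fell were Rora by 1.68, Nr1d2 by 0.96 and Bhlhe40 by 0.80. Clock had a change of -0.47 and missed the threshold (adjusted p = 0.0574). Mcm6 and Bhlhe40 did not pass without 1 or more of the 4 arrays. Without the labelled-knockout 4 h array the Bhlhe40 change was -0.72. For Cdkn1b the change was -0.52 with all its probe sets averaged, and likewise -0.35 for Rora and -0.60 for Nr1d2. For Mcm6 the change was 1.503 without probe sets that several transcripts can share.

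Of 27 nuclear-encoded respiratory chain genes 0 changed in either direction, against 21% of all genes. Their changes lay between -0.34 and 0.20, with Sdha at -0.34, Sdhb at -0.22, Ndufs1 at -0.19 and Ndufs3 at 0.20. Of 21 cytosolic ribosomal protein genes 0 rose and 1, Rpl12, fell by 0.45 (11.3% and 9.72% over all genes). Rps6, Rps19 and Rps4x had changes of 0.22, -0.14 and -0.19. Of 14 snoRNA host genes, 1, Snhg1, fell by 0.76 and none rose (9.72% and 11.3% over all genes). Snhg5, Taf1d and Gas5 had changes of -0.47, -0.64 and -0.24. Of 30 ribosome biogenesis genes 6 fell and 1, Noc4l, rose by 0.58 (9.72% and 11.3% over all genes). Gnl3, Tsr1 and Rrs1 fell by 0.98, 0.84 and 0.63. In labelled-knockout cells, leaving out the 2 h array gave 0 that fell and leaving out the 4 h array 1. Of 10 housekeeping genes 1, Tbp, rose by 0.61 and 1, Hprt, fell by 0.46, near the 11.3% and 9.72% over all genes. Actb read 13.54 at 4 h against 13.55 at 2 h in labelled-knockout cells and 13.57 at 4 h against 13.63 at 2 h in wild-type cells, and Gusb and Tubb5 had changes of -0.31 and -0.45 without passing. Calls lost without single arrays of the 4 were those of Rpl12, Snhg1, Noc4l, Gnl3, Tsr1, Rrs1, Tbp and Hprt (adjusted p up to 0.251 for Tbp, without the wild-type 2 h array). For Noc4l the change was 0.92 with all its probe sets averaged, and likewise -0.63 (adjusted p = 0.0510) for Tsr1 and 0.28 (adjusted p = 0.152) for Tbp. For Rpl12 the change was -0.45 (adjusted p = 0.0508) without probe sets that several transcripts can share, and likewise 1.24 for Noc4l.

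The interval between 0 h and 1 h shares no array with the late one, so early and late changes can be set side by side. Both tests use the same estimate of each gene's spread, so their calls are not independent. A gene of small spread is more readily called in both. At 1 h, 483 genes were higher than at 0 h (3.85%) and 830 were lower (6.62%) by the same fit. Of the 1219 genes that fell late, 174 had risen early, which is 14.3% of the late and 36.0% of the early list. Of the 1412 that rose late, 218 had fallen early, 15.4% of the late and 26.3% of the early list. In the same direction both times, 52 genes rose, 10.8% of the early rises and near the 11.3% of all genes. Likewise 41 fell, 4.94% of the early falls against 9.72% of all genes. No early change was called for 1142 of 1412 late rises and 1004 of 1219 late falls. Early calls were few over all genes too (3.85% higher and 6.62% lower). Among the genes that fell at least 2-fold in both genotypes, 73 of 345 (21.2%) had risen early, against 3.85% over all genes. In the same group 6 (1.74%) had fallen early, against 6.62%. Among those that rose at least 2-fold in both, 18 of 429 had risen early and 47 had fallen. These shares depended on the processing. After centring on housekeeping genes 26.7% of early rises fell late and 40.1% of early falls rose late, so the larger share was then the other one. Without a genotype term the shares were 27.9% and 19.8%.

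Whether the late change differed between genotypes was tested with limma on the difference of the 2 changes (labelled knockout minus wild type), which left 1 residual degree of freedom. It called 0 of 12540 genes (0%), with 804 (6.41%) at an unadjusted p under 0.05, and 30 with trend and robust settings, of which 7 are among the genes described next. Without a test, the changes of 249 genes (1.99%) were 2-fold or more apart. In simulated data with normal errors the test recovered 90 of 100 genes whose changes differed by 2 log2 units and 7 of 100 that differed by 1. Of its calls there 14.2% were false. These rates need not hold in the real data, where Ifng differed by 3.38 and was not called. The 0 calls thus do not show that no such difference exists.

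Ifng, the interferon-gamma gene, was among the genes of smallest unadjusted p. It read 7.82 at 4 h against 3.22 at 2 h in labelled-knockout cells and 4.06 at 4 h against 2.85 at 2 h in wild-type cells, at background in wild-type cells at 2 h, and all earlier values were between 2.66 and 3.22 (difference of the changes 3.38, SE 0.22, unadjusted p = 7.21e-05, adjusted p = 0.770). With trend and robust settings that difference passed (adjusted p = 0.00420). Its product is made mainly by T and NK cells. Of 7 T and NK cell markers on the arrays, 3 were above background on at least 1 of the 4 arrays. Cd3g, Cd2, Ncr1 and Il2rb were at background on all 4. The summed level of the list was 7.08 at 4 h against 6.56 at 2 h in labelled-knockout cells. In wild-type cells it was 6.30 at 4 h against 6.31 at 2 h. Of 4 tested, 0 rose and 0 fell (11.3% and 9.72% over all genes). Without regard to the test, 4 were higher at 4 h in labelled-knockout cells (median change 0.45) and 2 in wild-type cells (median change -0.10). The part of such cells in the Ifng values was not tested. Ifng did not pass the test of the interval itself (log2 change 2.91, SE 0.86, adjusted p = 0.0613), though it did with the 4 late arrays alone (adjusted p = 0.0471).

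The changes of further named genes differed in size between the genotypes, with labelled knockout minus wild type above 0 in these. Prickle1, a planar polarity gene, read 6.16 at 4 h against 4.18 at 2 h in labelled-knockout cells and 3.84 at 4 h against 3.83 at 2 h in wild-type cells, higher at 4 h in labelled-knockout and level in wild-type cells. Slc39a2, a zinc transporter gene, followed the same pattern (5.94 at 4 h against 4.35 at 2 h in labelled-knockout cells and 3.48 at 4 h against 3.51 at 2 h in wild-type cells). Rnf31, of the linear ubiquitin ligase complex, rose in both, by 2.57 in labelled-knockout and 0.87 in wild-type cells. Oaf and Cass4 were lower at 4 h in both genotypes, by 0.45 in labelled-knockout and 2.56 in wild-type cells and by 1.05 in labelled-knockout and 2.66 in wild-type cells, and Otulinl read 3.59 at 4 h against 3.50 at 2 h in labelled-knockout cells and 3.12 at 4 h against 5.13 at 2 h in wild-type cells, already low at 2 h in labelled-knockout cells. None of these differences passed after adjustment, and with trend and robust settings that of Otulinl did (adjusted p = 0.0471). The test was missed with 1 of the 4 arrays left out by Rnf31 and Cass4, at an adjusted p of up to 0.0983 for Rnf31 without the labelled-knockout 2 h array.

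Below 0 in the same difference, Lcn2, the siderophore-binding lipocalin gene, read 11.27 at 4 h against 10.91 at 2 h in labelled-knockout cells and 10.82 at 4 h against 8.10 at 2 h in wild-type cells. In labelled-knockout cells it was already bright, and by 4 h wild-type cells had come near that level. Hdc, the histamine-forming enzyme gene, rose by 2.22 in labelled-knockout and 4.23 in wild-type cells, to 8.88 and 8.91 at 4 h. Itgb8, an integrin gene, rose by 0.66 in labelled-knockout and 3.15 in wild-type cells. Stxbp6, Bambi, a decoy receptor gene for TGF-beta, and the MYC family gene Mycl were lower at 4 h in labelled-knockout and higher in wild-type cells, and Mycl read 3.23 at 4 h against 3.49 at 2 h in labelled-knockout cells and 5.05 at 4 h against 2.61 at 2 h in wild-type cells, at background in wild-type cells at 2 h. Ereg and Efnb2, growth factor and ephrin ligand genes, were lower at 4 h in both, by 2.71 in labelled-knockout and 0.67 in wild-type cells and by 3.56 in labelled-knockout and 1.61 in wild-type cells. None of these differences passed after adjustment. With trend and robust settings those of Lcn2 (adjusted p = 0.00107), Mycl (0.00445), Efnb2 (0.00445), Hdc (0.0336) and Itgb8 (0.0355) did, and those of Stxbp6, Bambi and Ereg did not. Itgb8 and Efnb2 did not pass without 1 or more of the 4 arrays (adjusted p up to 0.236 for Itgb8 without the wild-type 4 h array). For Efnb2 the change was -1.47 with all its probe sets averaged.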

How the data were processed

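Mouse 430 2.0 arrays were read at 0, 1, 2 and 4 h of LPS in 2 genotypes, 1 array each (8 arrays, 45101 probe sets). The authors' deposited values are log2 RMA values, per the submitters' processing notes and the values themselves; no version of RMA is stated there. RMA corrects background, equalises the arrays' distributions and summarises probes, so a shift shared by most genes is removed, and differences near background are compressed. Labels name Trizol extraction and NuGEN Ovation amplification.

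GEO's platform annotation named 34958 probe sets with 1 gene, 932 with several, which were left out, and 9211 with none; symbols were checked through 34754 Entrez matches, and 0 changed. A gene was its probe set of highest mean, kept if its second-highest array reached the table's median of 3.16, which left 12540 of 18193 genes. Background was the highest of 27 bacterial control probe sets on each array. Where both arrays of a time were at background, the fold is a lower bound, with the dim value set to that level or the probe set's own, whichever is higher. limma 3.58.1 in R 4.3.3 fitted time and genotype to all 8 arrays (3 residual degrees of freedom), with Benjamini-Hochberg adjustment over 12540 genes and a threshold of 0.05. The number of arrays limits the precision. Data were simulated from the fitted means with normal errors, the 4 h means being set equal to those at 2 h before some genes were changed. There the fit for 4 h minus 2 h recovered 94 of 100 genes changed by 1 log2 unit and 99 of 100 changed by 2. Over 12540 genes, 3.5% of its calls were false. A larger share of genes (21%) was called in the real data, so these rates need not hold there.

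Members, gene lists and markers were chosen with earlier results of these data known. The text names, by rule, the 15 largest rises and falls, the 4 members of smallest p per list, the genes whose change differs most between genotypes and a set of standard response genes; others are marked as named after their values were seen. Gapdh had no probe set with 1 gene that could be used and is given only through its control probe sets. Promoter motifs were to be counted in genes that moved at least 2-fold in both genotypes; too few of those had a promoter, so all called genes were used, a choice made after seeing the data. Lists were described by counts and medians, with no test. Alternatives covered normalization, filter, probe set choice, variance model, arrays in the fit, the genotype term and leaving out each array.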

Additional observations from a re-analysis of the deposited data

Results flagged for a closer look

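For 11 named genes the 2 genotypes moved in opposite directions between 2 h and 4 h, which with 1 array per genotype and time is a sign in a single difference each. The difference of the changes was tested with limma for each, and none passed after adjustment (0 of 12540 genes, with 804 at an unadjusted p under 0.05). With trend and robust settings, which called 30 genes, Mycl (adjusted p = 0.00445) and Otulinl (adjusted p = 0.0471) passed and the other 9 did not.

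Mycl had a change of -0.26 in labelled-knockout and 2.44 in wild-type cells. Bambi had -0.62 in labelled-knockout and 1.37 in wild-type cells, Stxbp6 -0.56 in labelled-knockout and 1.54 in wild-type cells, and Il6 -0.029 in labelled-knockout and 1.43 in wild-type cells. In the other direction, Slc39a2 had a change of 1.59 in labelled-knockout and -0.035 in wild-type cells. Calcr had 0.72 in labelled-knockout and -0.35 in wild-type cells, and Otulinl 0.088 in labelled-knockout and -2.01 in wild-type cells. Ptgs2 had a change of -0.31 in labelled-knockout and 0.17 in wild-type cells. The MHC class I genes were close to 0 throughout, with B2m at -0.0087 in labelled-knockout and 0.096 in wild-type cells, H2-D1 at 0.042 in labelled-knockout and -0.0030 in wild-type cells, and H2-K1 at -0.048 in labelled-knockout and 0.025 in wild-type cells.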

How the results depend on the processing

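Leaving out 1 of the 4 late arrays left 1 array at its time and fewer residual degrees of freedom. A call lost that way can reflect lower precision. The count of changed genes depended on single arrays. Without 1 array it lay between 1331 and 2471, with 673 to 1373 rising and 616 to 1098 falling. For labelled-knockout cells it was 1331 without the 2 h and 1555 without the 4 h array, and for wild-type cells 1492 without the 2 h and 1556 without the 4 h array. Genes that rose or fell at least 2-fold in both genotypes numbered 430 to 431 and 342 to 346 without single 0 h or 1 h arrays; these counts cannot be made without a late array, and the test of the genotype difference could not be fitted with an array left out, with the 4 late arrays alone or without genotype. No genotype term gave 1269 genes (702 rising, 567 falling), where the difference between genotypes counts as error. Minimum folds of 1.5 gave 933 and 757 genes, and of 3 gave 166 and 104. The mean of all probe sets, those at background included, gave 189 genes at least 2-fold lower. It moved the log2 change of 52 of 184 called genes named here by over 1.5 times and ended 12 of their calls. Of 228 named genes, calls ended for 9 with cyclic loess, 16 with housekeeping centring, 6 with trend and robust settings, 14 with the 4 late arrays alone and 67 without a genotype term. Genes that had not passed but did under another setting, single arrays left out aside, were Clock, Ccl6, Gusb, Il10, Tubb5, Ereg, Ifnar2, Rps4x, Sdha, Snhg5, Ccl5, Cxcl9, Ifng and Rsad2. Trend and robust settings called 30 genes for the genotype difference, against 0.

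Of genes called higher at 1 h than at 0 h, 22.99% to 37.3% fell late without 1 array, and of those lower at 1 h, 13.98% to 33.5% rose late. The ISRE share was 7.88% to 10.5% of rising and 2.45% to 3.30% of falling promoters.

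Directions turned for genes that had not passed, and for the called genes Hspa1b and Col3a1. Cyclic loess gave a change of 0.089 for Actb and 0.096 for H2-K1. Centring on housekeeping genes gave 0.063 for Actb, 0.090 for H2-K1 and 0.028 for Ptgs2. The mean of all probe sets gave 0.058 for Actb, -0.023 for H2-D1, 0.14 for H2-K1, -0.046 for Ifnar2 and 0.071 for Rps4x. With probe sets that several transcripts can share left out it was -0.11 for Col3a1, -0.13 for H2-D1 and 0.014 for Hspa1b, whose remaining probe set was near background. Leaving out each array gave -0.29 to 1.05 for Bambi, -1.04 to 1.41 for Calcr, -0.49 to 0.35 for Ptgs2, -0.23 to 1.21 for Stxbp6 and -0.0076 to 0.095 for B2m. The range was -0.012 to 1.09 for Ccl5, -0.26 to 0.69 for Il12b, -0.88 to 3.97 for Lcn2, -0.040 to 0.017 for H2-K1 and -0.0040 to 1.56 for Slc39a2. The cause was not tested. The labels give no replicate numbers to pair; 4 h and 2 h were paired within genotype through the genotype term.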
